A study of Mus musculus with 16 samples.

Results

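Interferon-stimulated genes are the genes that cells switch on when an interferon binds its receptor. A list of 40 of them, given by symbol and chosen with earlier results of these data known, was followed through 16 mouse liver libraries. The count table held a row for each of the 40 symbols, out of 52143 gene identifiers in all, and 39 of the 40 passed the filter on low counts, out of 11324 genes tested. The list divides into 27 type I response genes (4 sensors of viral nucleic acid, 4 regulators and 19 effectors), 9 interferon-gamma GTPases, 3 genes of the immunoproteasome and its peptide transporter, and Irf1, which both interferon types induce. The member that failed the filter was Mx1, with 1 to 10 counts in a library and a level of at least 1 CPM in 5 libraries, where CPM is the count scaled to the library size.

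The study asked how silencing of the receptor FGFR4 in hepatocytes changes a liver that is fed a high-fat diet (HFD). Male C57BL6/J mice, 6 weeks old when the diets began, were kept on chow or HFD for 12 weeks and were injected under the skin every 2 weeks. The libraries were made from liver RNA, with 4 libraries in each group. The Chow and HFD groups received saline. The Chow/FGFR4 KD and HFD/FGFR4 KD groups received 3 mg/kg of an siRNA against FGFR4, coupled to GalNAc, a sugar that is taken up by hepatocytes. No group received a control siRNA, so that loss of FGFR4 and exposure to an siRNA cannot be told apart in the KD comparisons. Mice were housed 4 per cage, and the labels do not tie a library to a mouse or a cage, so the p-values measure the spread between these libraries.

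Type I interferons (interferon-alpha and -beta) signal through IFNAR1 and IFNAR2 to a complex that holds STAT2 and IRF9 and binds a DNA element called the interferon-stimulated response element (ISRE). Interferon-gamma signals through IFNGR1 and IFNGR2 and acts on another element, the gamma-activated site (GAS). Among the products are antiviral effectors such as the IFIT, OAS and MX proteins, GTPases that attack vacuoles holding intracellular microbes, and the proteasome subunits and peptide transporter that feed MHC class I. Hepatocytes, Kupffer cells and endothelial cells of the liver all carry interferon receptors. In bulk liver RNA, fewer cells of a type and less RNA per cell cannot be told apart.

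Both elements can be looked up in the promoters of the list. RefSeq promoter windows (GRCm38.p6, 250 bases before to 50 bases after the start site) were available for 30 of the 40 genes. Without a window were Usp18, Ifi27, Gbp6, Dhx58, Mx2, Oas2, Zbp1, Parp14, Iigp1 and Mx1. An ISRE core was searched as GAAANNGAAA and a GAS as TTCNNNGAA, on both strands, where N is any base. A match may overlap another. The ISRE core was found in 17 of the 30 genes (56.7%), against 3.99% of 27025 genes in the promoter table. The GAS was found in 9 of 30 (30%), against 9.55%. By class, the ISRE core was present in 11 of 19 type I genes, in 6 of 7 interferon-gamma GTPases and in none of 3 immunoproteasome and transporter genes, of which Psmb8 had a GAS. These are matches of letters and not measured binding. Whether a motif goes with a change in level was not tested. The windows of 6 genes are shown as examples. Isg15, Ifit3 and Bst2 stand for the type I effectors, of which Bst2 was called lower on HFD. Gbp3 and Igtp stand for the GTPases, and Irf1 has a GAS alone. Each stretch shown runs from base -160 to base -1 before the start site, 5′ to 3′ on the strand of the gene. Capitals mark the ISRE cores and GAS.
Isg15 (chr4:156200819-156200978, minus strand): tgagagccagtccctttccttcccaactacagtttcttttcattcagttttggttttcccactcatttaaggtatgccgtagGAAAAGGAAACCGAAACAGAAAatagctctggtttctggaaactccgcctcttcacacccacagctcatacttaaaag
Ifit3 (chr19:34583369-34583528, plus strand): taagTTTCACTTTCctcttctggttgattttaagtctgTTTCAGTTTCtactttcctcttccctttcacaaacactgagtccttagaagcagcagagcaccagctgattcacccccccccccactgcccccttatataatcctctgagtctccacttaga
Bst2 (chr8:71537473-71537632, minus strand): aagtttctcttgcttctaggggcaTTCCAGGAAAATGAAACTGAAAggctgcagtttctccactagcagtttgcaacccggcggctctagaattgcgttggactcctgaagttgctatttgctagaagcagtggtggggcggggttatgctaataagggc
Gbp3 (chr3:142559884-142560043, plus strand): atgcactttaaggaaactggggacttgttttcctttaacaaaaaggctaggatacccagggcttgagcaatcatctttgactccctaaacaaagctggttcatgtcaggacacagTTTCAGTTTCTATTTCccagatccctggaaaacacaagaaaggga
Igtp (chr11:58199396-58199555, plus strand): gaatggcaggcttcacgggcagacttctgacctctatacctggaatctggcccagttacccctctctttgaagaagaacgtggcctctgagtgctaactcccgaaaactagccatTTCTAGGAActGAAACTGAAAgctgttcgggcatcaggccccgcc
Irf1 (chr11:53769854-53770013, plus strand): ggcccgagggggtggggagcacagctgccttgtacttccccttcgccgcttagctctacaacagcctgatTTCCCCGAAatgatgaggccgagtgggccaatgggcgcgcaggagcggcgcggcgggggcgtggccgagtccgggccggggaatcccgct

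In these windows Isg15, Bst2 and Gbp3 carry overlapping ISRE cores, Ifit3 carries a separated pair that reads on the opposite strand, and Igtp carries a GAS next to an ISRE core.

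**Figure D1:**
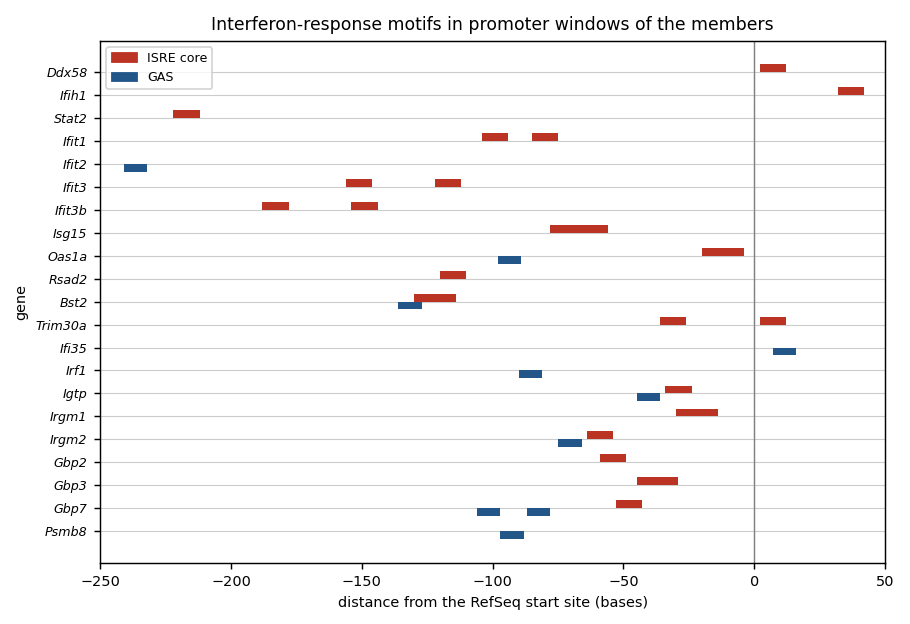
Position of each ISRE core (red) and GAS (blue) relative to the RefSeq start site, in bases, for the genes of the list with at least 1 match in a window from 250 bases before to 50 bases after it. Most matches lie upstream of the start site, and the 4 matches that lie after it belong to Ddx58, Ifih1, Trim30a and Ifi35.

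Total counts ran from 3445949 to 5976449 per library. Many of the type I genes were read from few counts: the lowest and highest count in a library were 8 and 66 for Usp18, 7 and 64 for Ifit3 and 1 and 27 for Oas2, whereas Stat2 had 162 to 326. Levels are in CPM, scaled with TMM factors, and are not divided by gene length, so they compare libraries and not genes. The siRNA target Fgfr4 followed the labels in all 16 libraries: the saline libraries were at 25.8 to 36.3 CPM on chow and 21.8 to 30.1 CPM on HFD, and the siRNA libraries at 2.76 to 6.17 CPM and 2.43 to 5.31 CPM. The share of counts from Gm42418 was 11.1% to 15.6% in HFD and 13.4% to 22.7% in Chow. HFD/FGFR4 KD library 1 stood apart from its group in this share, at 22.3% against 13.7% to 16.2% in the other 3. Calls in the list that rest on it are also given without it. The class medians and the pathway genes outside the list are not.

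**Figure D2:**
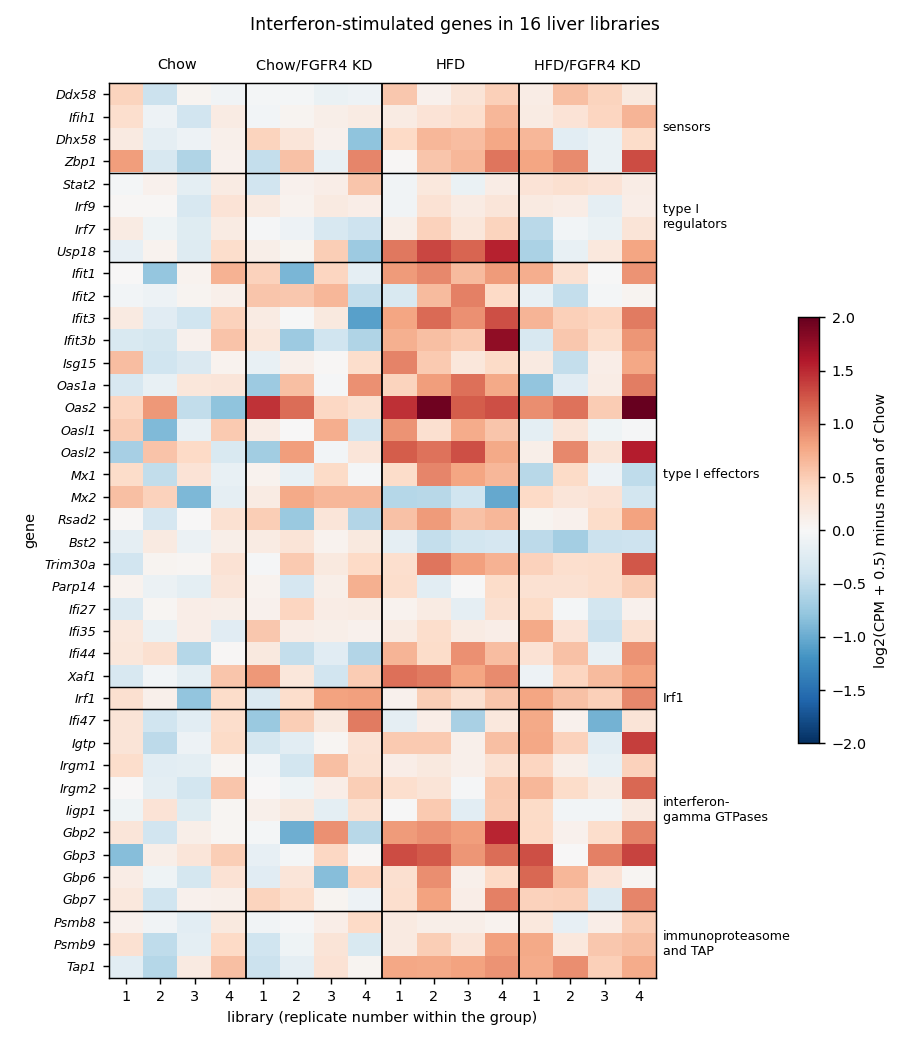
Each row is 1 of the 40 genes, grouped by class, and each column 1 of the 16 libraries. The colour is log2(CPM + 0.5) minus the mean of the 4 Chow libraries, on a scale that ends at -2 and 2. The HFD columns are mostly red among the type I effectors, with Bst2 and Mx2 blue, and the HFD/FGFR4 KD columns are paler, with library 4 the reddest.

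The high-fat diet raised a large share of the list. In HFD against Chow, 17 of the 39 genes tested were called higher and 1 lower, where a call needs p under 0.05 in limma-voom and also an adjusted p (Benjamini-Hochberg, over every gene tested) under 0.25. Of all genes tested, 13.3% were called higher and 12.7% lower. The median log2 change was 0.45 over the list and 0.0070 over all genes, and 36 of the 39 changes were above 0. In 13 genes every HFD library lay above every Chow library, which 8.33% of all genes did. At an adjusted p under 0.05, 7 of the 18 calls were left. In the same comparison edgeR called 19 genes of the list, 17 of them shared with limma, and DESeq2 called 18, of which 16 were shared. Both left out Oasl1 and added Mx2, which was lower, and Gbp7, and DESeq2 also left out Ifi44.

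Most calls were effectors of the type I response. Of the 18 effectors tested, 11 were called higher and 1 lower, where 13.3% and 12.7% of all genes were. Their median log2 change was 0.75. Ifit3, which binds viral RNA together with other IFIT proteins, was at 5.10, 3.74, 3.27 and 6.31 CPM in the Chow libraries and at 8.05, 10.4, 8.88 and 11.7 CPM in HFD. The groups did not overlap, and Ifit3 rose 2.11-fold (log2 change 1.08 ± 0.25 SE, limma adjusted p = 0.0144). Ifit3 shares 61.8% of its 31-base words with its near copy Ifit3b, so reads could be split between the pair. Xaf1, a binder of the apoptosis inhibitor XIAP, was at 1.64, 2.09, 1.85 and 3.43 CPM in Chow and at 5.23, 5.01, 4.14 and 4.66 CPM in HFD. It rose 2.15-fold (log2 change 1.11 ± 0.29, adjusted p = 0.0235), again with no overlap.

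Oas2, which makes the 2′-5′ oligoadenylate that activates RNase L, had the widest change of the list and was read from few counts. Its level was 1.23, 1.83, 0.406 and 0.237 CPM in Chow, where the last pair of values are 2 counts and 1 count, and 3.03, 4.41, 2.45 and 2.62 CPM in HFD. The log2 change was 1.92 with a 95% interval from 0.83 to 3.02 (adjusted p = 0.0279). Oasl2, an OAS-like protein, rose by 1.31 ± 0.42 on the log2 scale (adjusted p = 0.0585), from 0.82 to 2.61 CPM in Chow to 3.03 to 4.60 CPM in HFD. Rsad2, the radical-SAM enzyme viperin, went from 4.70 to 7.58 CPM in Chow to 9.35 to 11.3 CPM in HFD (log2 change 0.69 ± 0.23, adjusted p = 0.0715). Trim30a, a ubiquitin ligase that restrains toll-like receptor signalling, went from 1.85 to 3.23 CPM to 3.34 to 5.89 CPM (log2 change 0.80 ± 0.27, adjusted p = 0.0768). In each of these genes the HFD libraries lay above all Chow libraries.

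Ifit1, which recognises the cap of foreign RNA, rose with some overlap. Chow libraries were at 3.49, 1.83, 3.67 and 5.92 CPM and HFD libraries at 6.63, 7.19, 5.67 and 6.66 CPM (log2 change 0.87 ± 0.32, adjusted p = 0.0945). Without Chow library 2 its change was 0.62 and the call was lost. The other 4 effectors called higher were Ifit3b, Oasl1, Ifi44 and Oas1a, at adjusted p between 0.120 and 0.177. In the 8 fits that left out 1 library, Oas1a lost its call in 7, Oasl1 in 4 and Ifit3b and Ifi44 in 3 each, and Oasl1 was not called in edgeR or DESeq2. Oas1a shares 68.8% of its words with other genes, nearly all with Oas1g, and its change is uncertain for that reason. Isg15, the ubiquitin-like modifier, was at 5.74, 2.61, 2.84 and 3.79 CPM in Chow and 7.64, 5.39, 4.29 and 4.85 CPM in HFD. Its log2 change of 0.58 had an interval from -0.02 to 1.17 and missed the call (adjusted p = 0.212). Isg15 was called in 2 of the 8 fits without 1 library, with the replicate block and with library totals in place of TMM factors. Ifit2, Parp14, Ifi27, Ifi35 and Mx2 were also not called in the limma fit on all libraries.

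Bst2 went the other way. This gene encodes tetherin, a membrane protein that holds budding viruses on the cell surface. It was at 56.0, 71.5, 58.2 and 68.7 CPM in Chow and at 55.6, 45.4, 48.9 and 49.9 CPM in HFD. Every HFD library lay below every Chow library, by a small gap at the edge, and Bst2 fell to 0.791 of its level (log2 change -0.34 ± 0.096, adjusted p = 0.0353). With library totals in place of TMM factors, which moves the median of all genes to 0.29, the change was -0.06 and the call was lost. Mx2, annotated as a polymorphic pseudogene in this mouse genome, was also lower in sign, at 6.08, 5.47, 1.83 and 3.31 CPM in Chow and 2.42, 2.45, 2.76 and 1.62 CPM in HFD. It was not called in limma (log2 change -0.67, interval -1.41 to 0.06, adjusted p = 0.237) and was called lower in edgeR and DESeq2.

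Among the regulators, Usp18 stood alone. Its product removes ISG15 from proteins and blocks signalling at IFNAR2. It was at 3.49, 4.17, 3.25 and 5.21 CPM in Chow and at 8.79, 10.8, 9.50 and 12.5 CPM in HFD. All HFD libraries were above all Chow libraries, and Usp18 rose 2.55-fold (log2 change 1.35 ± 0.26, adjusted p = 0.0054), the smallest p of the list. Irf7, the transcription factor that amplifies interferon-alpha genes, was at 11.8 to 15.9 CPM in Chow and 15.3 to 19.5 CPM in HFD (log2 change 0.31, interval -0.01 to 0.63, adjusted p = 0.212). It missed the call here, and was called in 3 of the 8 fits without 1 library, with upper quartile scaling and with library totals. Stat2, a subunit of the ISRE-binding complex, was at 39.1 to 50.2 CPM in Chow and 41.1 to 51.8 CPM in HFD, a log2 change of 0.04 with an interval from -0.27 to 0.35. Irf9, its DNA-binding partner, was not called either.

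Among the 4 sensors, Dhx58 and Ifih1 were called higher, where 13.3% of all genes were. Dhx58, known as LGP2, was at 4.96 to 6.56 CPM in Chow and 7.64 to 10.1 CPM in HFD without overlap (log2 change 0.62 ± 0.24, adjusted p = 0.108). Ifih1, which encodes the double-stranded RNA sensor MDA5, was at 16 to 26.9 CPM in Chow and 23.6 to 33.7 CPM in HFD, and its call was lost in 4 of the 8 fits without 1 library. Ddx58, which encodes RIG-I, and Zbp1, a sensor of Z-form nucleic acid, were higher in sign and not called. Ddx58 was called with upper quartile scaling, library totals and library quality weights, and without Chow library 1 or HFD library 2.

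Of the 9 interferon-gamma GTPases, 2 were called higher, where 13.3% of all genes were, and the median log2 change of the class was 0.42. The called pair were guanylate-binding proteins. Gbp3 was at 0.82, 2.09, 2.32 and 2.84 CPM in Chow and at 5.36, 5.08, 3.91 and 4.64 CPM in HFD, and it rose 2.50-fold (log2 change 1.32 ± 0.36, adjusted p = 0.0294). Gbp2 was at 2.26, 1.30, 2.03 and 1.89 CPM in Chow and at 3.73, 3.92, 3.68 and 6.26 CPM in HFD (log2 change 1.11 ± 0.34, adjusted p = 0.0512). Neither overlapped between the groups. Igtp, an immunity-related GTPase, was at 11 to 21.1 CPM in Chow and 17.3 to 24.6 CPM in HFD, a log2 change of 0.42 with an interval from -0.17 to 1.01. Its relatives Irgm1, Irgm2, Iigp1 and Ifi47 and the binding proteins Gbp6 and Gbp7 were not called in limma, and Ifi47 was lower in sign. Gbp7 had a log2 change of 0.54 (interval -0.04 to 1.12) and was called higher in edgeR, in DESeq2 and with the replicate block. Irgm2 was called with the replicate block, with library totals and without Chow library 4. Gbp6 shares 74.2% of its words with other genes, and Igtp 15.9%, almost all with Irgm2, so small shifts in these genes are less certain.

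Of the 3 antigen-processing genes, Tap1 was called higher, where 13.3% of all genes were. Tap1 encodes a subunit of the pump that carries peptides into the endoplasmic reticulum for MHC class I. Chow libraries were at 12.5, 9.65, 16.6 and 22.3 CPM and HFD libraries at 25.4, 24.8, 25.8 and 27.7 CPM. The HFD libraries were close together and above all Chow libraries, and Tap1 rose 1.76-fold (log2 change 0.81 ± 0.19, adjusted p = 0.0127). The catalytic subunits of the immunoproteasome gave less. Psmb8 was at 13.2 to 17.8 CPM in Chow and 16.2 to 17.6 CPM in HFD, a log2 change of 0.13 with an interval from -0.17 to 0.42. Psmb9 was at 5.48 to 10.7 CPM in Chow and 9.08 to 14.5 CPM in HFD and was not called. It was called in the fits without Chow library 1, Chow library 4 or HFD library 1, and with library totals.

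**Figure D3:**
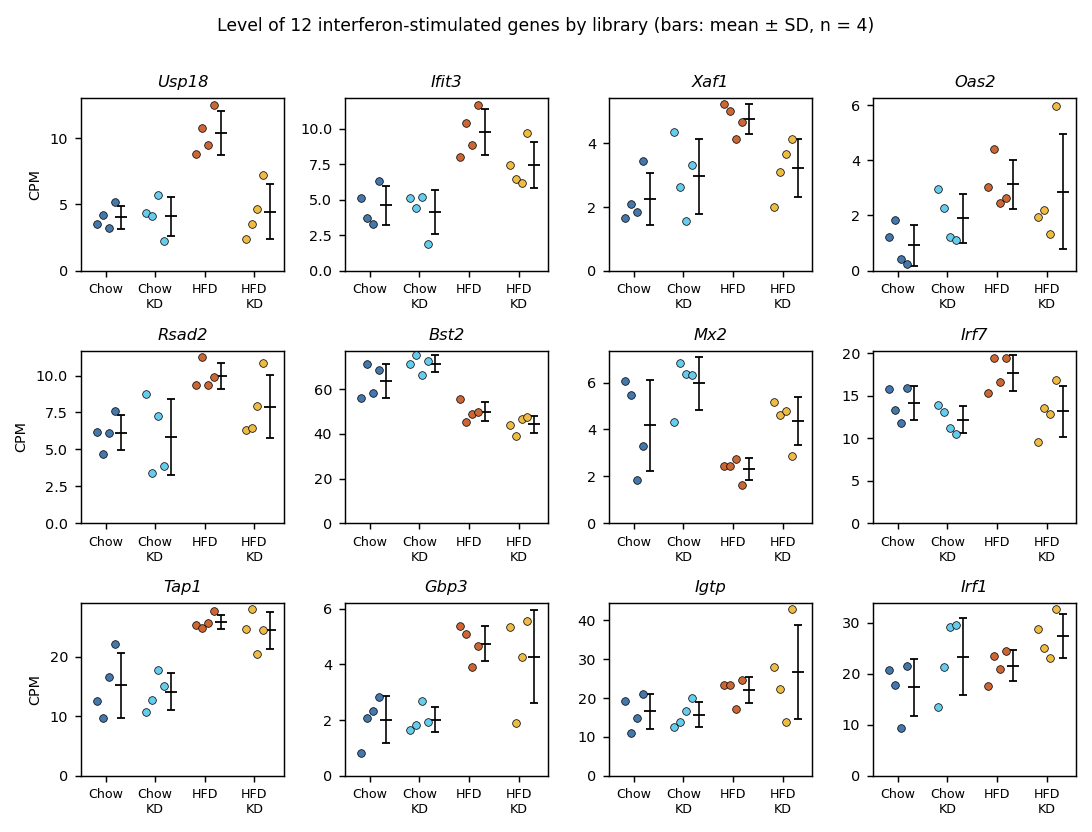
CPM of 12 genes of the list in each of the 16 libraries, with the mean and SD of each group beside the points. The axis starts at 0 in each panel. Usp18 is high in HFD alone, Tap1 and Gbp3 are high in HFD and in most HFD/FGFR4 KD libraries, and Bst2 is lower in both HFD groups.

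Knockdown of FGFR4 on HFD lowered 1 gene of the list, Usp18, which was the regulator with the clearest rise on HFD. Its levels in HFD/FGFR4 KD were 2.38, 3.54, 4.65 and 7.25 CPM, against 8.79, 10.8, 9.50 and 12.5 CPM in HFD. Chow/FGFR4 KD had 4.36, 4.12, 5.75 and 2.21 CPM. All HFD/FGFR4 KD libraries lay below all HFD libraries, and 3 of the 4 lay within the range of the chow-fed libraries. Usp18 fell to 0.407 of its HFD level (log2 change -1.30 ± 0.26, limma adjusted p = 0.0453). It was called in all 8 fits that left out 1 library of the comparison, at -1.51 to -1.06. The smallest change was in the fit without HFD/FGFR4 KD library 1, which had the lowest Usp18 of its group (limma adjusted p = 0.126). Over the 8 fits the limma adjusted p ran from 0.0427 to 0.135. Of all genes, 1.64% were called lower and 1.5% higher. Because the HFD libraries serve in both comparisons, a high value in HFD would enter the rise on HFD and the fall under KD alike, so the 2 changes of Usp18 are given side by side and not as separate support.

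The other genes of the list were not called in this comparison. Without adjustment, 7 of 39 had p under 0.05, as had 11% of all genes. Irf7 was at 9.54, 13.5, 12.8 and 16.8 CPM in HFD/FGFR4 KD and at 15.3, 19.5, 16.6 and 19.4 CPM in HFD, a log2 change of -0.44 with an interval from -0.77 to -0.12 (adjusted p = 0.276). Oasl1 and Mx2, picked after their values were seen, did not overlap between the groups. Oasl1 was at 4.12 to 5.75 CPM in HFD/FGFR4 KD and 6.05 to 9.37 CPM in HFD (log2 change -0.70, interval -1.26 to -0.13, adjusted p = 0.334). Mx2 was at 2.85 to 5.18 CPM in HFD/FGFR4 KD and 1.62 to 2.76 CPM in HFD (log2 change 0.90, interval 0.18 to 1.61, adjusted p = 0.329). In all, 2 genes of the list were separated downward and 1 upward, and 3.33% and 3.16% of all genes were.

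The class medians differed in this comparison. Its HFD libraries also serve in HFD against Chow, so a high type I level in HFD would enter both comparisons. The median log2 change was -0.39 over the 26 type I genes, of which 20 were below 0, and 0.016 over the 9 GTPases and 0.042 over the 3 antigen-processing genes. Over all genes tested it was 0.0035. Over the whole list it was -0.17, and it ran from -0.21 to -0.032 (without HFD/FGFR4 KD library 3) over the fits without 1 library. Isg15 had a log2 change of -0.45 (interval -1.02 to 0.12) and Ifit1 of -0.41 (interval -0.99 to 0.18), whereas Igtp had 0.13 (interval -0.41 to 0.67), Psmb8 0.04 (interval -0.24 to 0.33), Stat2 0.22 (interval -0.08 to 0.53) and Irf1 0.34 (interval -0.15 to 0.83). Gbp2 went with the type I genes, at -0.63 (interval -1.27 to 0.01). All of these intervals hold 0.

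**Figure D4:**
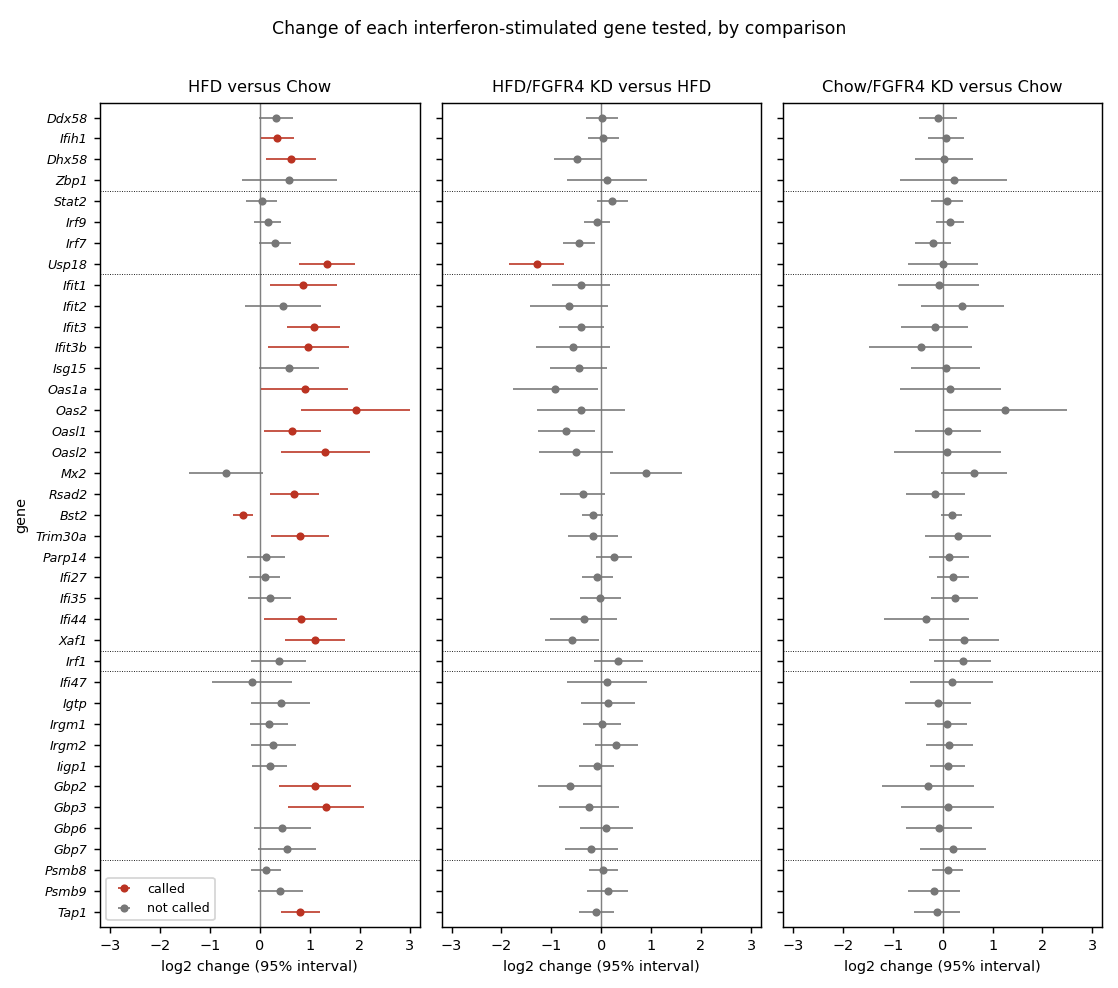
Log2 change of the 39 genes tested, with 95% intervals, for HFD against Chow, HFD/FGFR4 KD against HFD and Chow/FGFR4 KD against Chow. Red marks called genes: 18 in the first panel, Usp18 in the second and none in the third. Dotted lines separate the classes.

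The classes can be followed library by library. The mean log2 CPM of each class was taken relative to the mean of the Chow libraries. For the type I genes it was 0.46, 0.57, 0.52 and 0.62 in the HFD libraries and 0.17, 0.23, 0.13 and 0.64 in HFD/FGFR4 KD, so that 3 of the 4 KD libraries lay below all HFD libraries and library 4 lay above them. For the GTPases it was 0.41, 0.62, 0.15 and 0.70 in HFD and 0.71, 0.25, 0.02 and 0.76 in HFD/FGFR4 KD. For the immunoproteasome and Tap1 it was 0.38, 0.45, 0.39 and 0.60 in HFD and 0.58, 0.33, 0.38 and 0.62 in HFD/FGFR4 KD. The groups overlapped in the latter pair of classes over most of their range. The means were 0.55 ± 0.068 in HFD and 0.29 ± 0.24 in HFD/FGFR4 KD for type I genes, 0.47 ± 0.25 and 0.44 ± 0.36 for the GTPases, and 0.46 ± 0.10 and 0.48 ± 0.14 for the antigen-processing genes (SD, n = 4 libraries each). These class means were formed over a list chosen with earlier results of these data known, and no test was made on them.

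**Figure D5:**
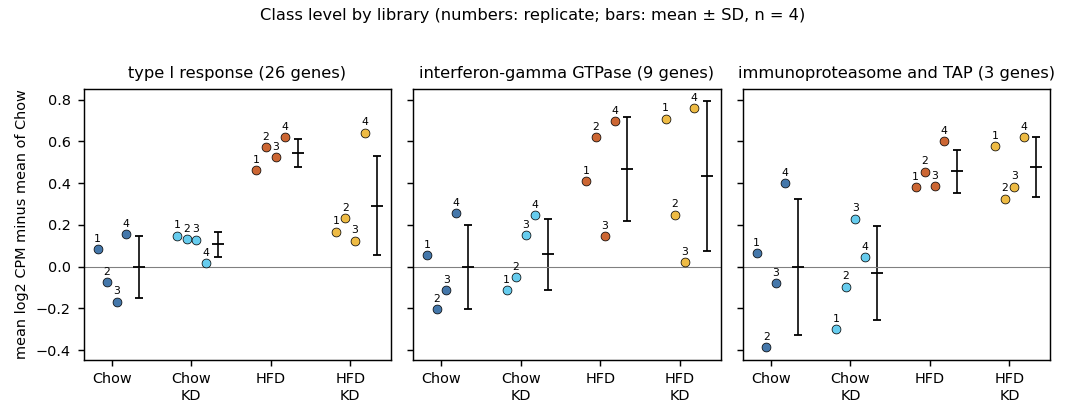
Mean log2 CPM of each class in each library, relative to the mean of the Chow libraries, with the replicate number above each point and the mean and SD of the group beside the points. In HFD/FGFR4 KD the type I level is spread from 0.13 to 0.64, with library 4 apart from the other 3, and the GTPases form a high pair (libraries 1 and 4) and a low pair.

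On chow, knockdown of FGFR4 moved no gene of the list past the threshold in limma, edgeR or DESeq2. In limma 1 gene, Oas2, had an unadjusted p under 0.05, and in edgeR and DESeq2 none had. Of all genes, 0.00883% were called, which was Fgfr4 itself. The median log2 change of the list was 0.098, and it ran from 0.017 (without Chow library 3) to 0.15 over the fits without 1 library. Among the indicator genes, Isg15 changed by 0.06 (interval -0.63 to 0.75), Irf7 by -0.20 (-0.56 to 0.17), Ifit1 by -0.08 (-0.90 to 0.73), Stat2 by 0.08 (-0.24 to 0.41), Igtp by -0.10 (-0.76 to 0.56), Gbp2 by -0.29 (-1.21 to 0.62), Irf1 by 0.40 (-0.17 to 0.97) and Psmb8 by 0.10 (-0.22 to 0.41), all on the log2 scale. All of these intervals hold 0.

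The difference between the KD effects on HFD and on chow was tested directly. No gene of the list passed in limma, edgeR or DESeq2, 4 had an unadjusted p under 0.05 in each, and 0.0353% of all genes were called. The difference was -1.30 for Usp18, with an interval from -2.19 to -0.41 (limma adjusted p = 0.571). A KD effect on Usp18 that depends on the diet was therefore not shown after adjustment over all genes. The median difference over the list was -0.24, and it ran from -0.32 to -0.14 (without HFD/FGFR4 KD library 3) over the fits without 1 library.

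The diets were also compared under knockdown. In HFD/FGFR4 KD against Chow/FGFR4 KD, 7 genes of the list were called higher and 1 lower, against 10.1% and 10.1% of all genes. Type I genes gave 2 higher and 1 lower of 26, with a median log2 change of 0.15. The GTPases gave 3 higher of 9, with a median of 0.44, and without HFD/FGFR4 KD library 1 none of the 9 was called. The antigen-processing genes gave 2 higher of 3, with a median of 0.71. In saline-injected mice the same medians were 0.61, 0.42 and 0.41. These 2 comparisons have no library in common, and the difference between them was not past the threshold for any gene of the list, since it is the difference between the KD effects tested above.

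Tap1 rose in both. It was at 10.7, 12.8, 17.9 and 15.2 CPM in Chow/FGFR4 KD and at 24.7, 28.1, 20.4 and 24.6 CPM in HFD/FGFR4 KD, without overlap (log2 change 0.83 ± 0.20, limma adjusted p = 0.0344). Bst2 fell in both. It was at 71.2, 75.4, 66.3 and 72.5 CPM in Chow/FGFR4 KD and at 44.0, 39.2, 46.7 and 47.4 CPM in HFD/FGFR4 KD, far apart (log2 change -0.69 ± 0.099, adjusted p = 0.0014). Here the fall also passed with library totals as the scaling, at -0.54.

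The other calls under knockdown were Psmb9 (log2 change 0.71 ± 0.23, adjusted p = 0.101), Ifit3 (0.84 ± 0.29, adjusted p = 0.121), Ddx58 (0.43 ± 0.17, adjusted p = 0.163), Gbp3 (0.97 ± 0.38, adjusted p = 0.166), Igtp (0.65 ± 0.29, adjusted p = 0.225) and Gbp6 (0.63 ± 0.29, adjusted p = 0.236). Igtp was at 12.5, 13.8, 16.6 and 19.9 CPM in Chow/FGFR4 KD and at 28, 22.4, 13.9 and 42.8 CPM in HFD/FGFR4 KD, so the HFD/FGFR4 KD libraries were spread widely and overlapped with chow. Leaving out single libraries ended the call of Igtp and of Gbp3 in 6 of 8 fits each, of Gbp6 in 4, of Ddx58 in 3 and of Ifit3 in 2. The calls of Tap1, Psmb9 and Bst2 held in all 8. Without HFD/FGFR4 KD library 1 the list had 8 calls again, of which 5 were among those named here: Gbp3, Igtp and Gbp6 were lost, and Ifih1, Ifit3b and Ifi27 were gained. Of the remaining indicator genes, Isg15 changed by 0.06 (interval -0.60 to 0.73), Irf7 by 0.06 (-0.31 to 0.43), Ifit1 by 0.54 (-0.20 to 1.29), Stat2 by 0.18 (-0.14 to 0.49), Gbp2 by 0.78 (-0.07 to 1.63), Irf1 by 0.32 (-0.21 to 0.84) and Psmb8 by 0.07 (-0.23 to 0.38).

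Irf1, which the 2 interferon types share as a target, was not called in any comparison in limma, edgeR or DESeq2. With library totals as the scaling it was called in HFD against Chow. The saline libraries on chow were at 20.7, 17.7, 9.33 and 21.5 CPM and those on HFD at 17.6, 23.4, 20.8 and 24.4 CPM. The siRNA libraries on chow were at 13.5, 21.3, 29.1 and 29.5 CPM and those on HFD at 28.8, 25, 23.1 and 32.6 CPM. The HFD/FGFR4 KD libraries were the highest on average, and they overlapped with HFD and with Chow/FGFR4 KD.

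The interferons themselves were not read at this depth. Of 11 interferon genes listed (5 interferon-alpha genes, Ifnb1, Ifng, Ifnl2, Ifnl3, Ifne and Ifnk), 10 had 0 counts in all 16 libraries, and Ifng had 1 count in 1 HFD library. A count of 0 allows up to 3 counts, which is 0.43 to 0.91 CPM depending on the library. Counting intervals and this floor cover counting error only. The receptors were present: Ifnar1 was at 26.4 to 34 CPM over all libraries, Ifnar2 at 28.7 to 45.7 CPM, Ifngr1 at 8.24 to 15.2 CPM and Ifngr2 at 10.4 to 25 CPM, while the interferon-lambda subunit Ifnlr1 was at 0 to 0.41 CPM. Ifngr2 (13.1 ± 2.30 CPM in Chow, 19.4 ± 4.65 CPM in HFD) and Il10rb (3.38 ± 1.13 and 6.09 ± 2.54 CPM) were called higher in HFD against Chow, and Ifnar2 was called lower in HFD/FGFR4 KD against Chow/FGFR4 KD (31.2 ± 1.16 and 38.6 ± 7.49 CPM; SD, n = 4).

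Of the kinases and transcription factors behind the receptors, Tyk2, the kinase bound to IFNAR1, was called higher in HFD against Chow. It was at 17.3 ± 0.675 CPM in Chow and 22.1 ± 4.75 CPM in HFD. Jak1 (86.9 ± 9.44 and 78.8 ± 5.97 CPM), Jak2 (11.9 ± 1.67 and 13.1 ± 1.61 CPM) and Stat3 (113 ± 43.4 and 87.6 ± 10.7 CPM) were not called. None of these 4 genes was called in a KD comparison.

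Pathway genes outside the list were followed as well. Of these genes, 71 passed the filter and were tested. In HFD against Chow, 25 were called higher and 4 lower, where 13.3% and 12.7% of all genes were. The further type I response genes gave 13 higher and 1 lower of 23, led by Samd9l (log2 change 1.40 ± 0.22, adjusted p = 0.0017), Dtx3l (0.57 ± 0.10, adjusted p = 0.0036), Lgals3bp (0.60 ± 0.14, adjusted p = 0.0139) and Slfn5 (0.70 ± 0.17, adjusted p = 0.0183). Of the antigen-processing genes, Tap2, the partner of Tap1, rose (0.54 ± 0.12, adjusted p = 0.0119) and Psme1, a subunit of the proteasome activator, fell (-0.34 ± 0.094, adjusted p = 0.0310). Also called lower were Helz2 (-0.39 ± 0.12), Irf5 (-0.86 ± 0.31) and Gm4951 (-0.28 ± 0.12), at adjusted p of 0.0491, 0.0895 and 0.160. Gm4951 belongs to the further interferon-gamma GTPases, which gave 2 higher and 1 lower of 6, with a median log2 change of 0.083. The chemokine genes gave 2 higher of 3, with a median of 1.57. Psmb5, Psmb6 and Psmb7, the constitutive counterparts of the immunoproteasome subunits, were not called in this comparison.

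Knockdown on HFD lowered 2 of the 71, and 1.64% of all genes were called lower. Lgals3bp, a secreted binder of galectins, was at 73.2, 54.1, 73.9 and 52.5 CPM in HFD and at 39.7, 49.1, 37.7 and 54.1 CPM in HFD/FGFR4 KD (log2 change -0.50 ± 0.14, limma adjusted p = 0.164). Cmpk2, a mitochondrial nucleotide kinase that lies beside Rsad2, was at 7.2, 4.41, 4.29 and 5.25 CPM in HFD and at 2.60, 2.66, 2.32 and 3.63 CPM in HFD/FGFR4 KD (log2 change -0.91 ± 0.28, adjusted p = 0.214). Cmpk2 did not overlap between the groups and Lgals3bp did. Both had been called higher in HFD against Chow, with the same HFD libraries. In HFD/FGFR4 KD against Chow/FGFR4 KD, 17 of the 71 were called higher, led by Dtx3l, H2-T23, Samd9l, Trim25 and Ptpn6, and 12 lower, led by Ifitm2, Helz2, Mavs, Psme1 and Socs3, where 10.1% of all genes were called in each direction. On chow, and for the difference between the KD effects, none was called in limma, and 6 and 4 had an unadjusted p under 0.05.

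Markers of liver macrophages were higher on HFD and, to a smaller degree and with no call, under KD on chow. The sum of 14 Kupffer cell and macrophage markers lay between 95.1 and 98.2 CPM in Chow, between 114 and 155 CPM in Chow/FGFR4 KD, between 161 and 285 CPM in HFD and between 139 and 239 CPM in HFD/FGFR4 KD. In HFD against Chow, 11 of the 12 markers tested were called higher, where 13.3% of all genes were. In HFD/FGFR4 KD against Chow/FGFR4 KD 4 were, where 10.1% of all genes were, and in HFD/FGFR4 KD against HFD none was. In Chow/FGFR4 KD against Chow none was called, but all 12 changes were above 0 (median log2 change 0.49). The sum of 5 monocyte markers was 3.92 to 5.30 CPM in Chow and 6.21 to 11.5 CPM in HFD, without overlap, and the 1 marker tested was not called. In HFD against Chow, 3 of 6 endothelial markers were called higher, where 13.3% of all genes were, and the other 3 were below 0. The 1 tested of 6 B and plasma cell markers was also called higher. Both sums overlapped between these groups. Endothelial markers summed to 94.6 to 121 CPM in Chow and 103 to 122 CPM in HFD. B and plasma cell markers summed to 1.30 to 9.94 CPM in Chow and 5.07 to 11.9 CPM in HFD. Stellate markers (6) summed to 90.2 to 131 CPM in Chow, 149 to 264 CPM in HFD and 105 to 180 CPM in HFD/FGFR4 KD. Under KD on HFD 5 of the 6 were below 0 and none was called. Adipocyte markers (5, with Lep at 0 throughout) summed to 0.793 to 11.4 CPM, 10.9 to 24.6 CPM and 3.82 to 8.63 CPM in these groups. The 1 adipocyte marker tested was called higher in HFD against Chow and lower in HFD/FGFR4 KD against HFD, where 13.3% and 1.64% of all genes were. The sum over 6 hepatocyte markers was 63850 to 82467 CPM over all libraries and overlapped between all groups. Of the 6, 3 were called lower in HFD against Chow, where 2 were above 0. In HFD/FGFR4 KD against HFD 1 was called lower, and the other 5 were above 0 (median log2 change of the 6 markers 0.18). Of all genes, 12.7% and 1.64% were called lower in these comparisons. The 12 T and NK cell markers summed to 1.11 to 5.92 CPM, 4 neutrophil markers to 0 to 4.14 CPM and 3 plasmacytoid dendritic cell markers to 0.203 to 1.30 CPM. The part of any of these cell types in the changes of the interferon-stimulated genes was not tested.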

How the data were processed

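Liver RNA of 16 libraries was sequenced, 4 in each of 4 groups taken from the labels. The authors trimmed reads with fastp, quantified transcripts with kallisto and turned these into gene values with tximport. The deposited values are estimated counts per gene that were not scaled or filtered. Positions are in GRCm38, and the annotation release is not given in the sources used here. The labels name a poly(A) library kit whereas the methods of the study name HTG EdgeSeq, a probe assay. The labels were followed, and which of them made these counts was not settled. Strand use in counting is not given in the sources used here.

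Symbols were found for 98.452% of 52143 identifiers. The filter removed any gene with under 1 CPM in more than 4 of 16 libraries and left 11324 genes. With TMM scaling from edgeR 4.0.16, limma-voom (limma 3.58.1, R 4.3.3) was fitted with a mean for each group and a spread shared by all 16 libraries. A call required p under 0.05 and, as in the study, a false discovery rate under 0.25 by Benjamini-Hochberg over every gene tested. Total counts of 3445949 to 5976449 set the precision. Alternatives were edgeR's quasi-likelihood test and DESeq2 (1.42.0), both on rounded counts, other filters and scalings, library weights, the replicate block, a stricter threshold, a fit on the groups compared alone and leaving out each library. To judge uncertain counting, each transcript was cut into 31-base words and the words found in a second gene were counted. No pair of libraries in a group agreed within sampling noise.

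All 40 genes of the list were accounted for. A gene was given with its fold change if called in that comparison (at most 12 in each direction, by smallest p) or if it was 1 of 8 indicators: Isg15, Irf7, Ifit1, Stat2, Igtp, Gbp2, Irf1 and Psmb8. Further pathway genes were named by level (ligands, receptors, JAK-STAT) or if called (at most 5 in each direction). The list, its classes and the pathway and marker lists were chosen with earlier results of these data known. A gene of the pathway is not reported here.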

Additional observations from a re-analysis of the deposited data

Results flagged for a closer look

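In each group of 4 libraries the highest and lowest value of each gene and class were compared with the nearest of the others, by the share of the group's range that the gap takes, against Dixon's critical value. Chance alone flags about 1 in 20 groups, and 8 of 172 stood apart, against 8.6 that this rate gives. HFD library 4 was high for Ifit3b, at 6.94 CPM with the next library at 3.06 CPM, and for Gbp2, at 6.26 CPM with the next at 3.92 CPM. HFD library 2 was high for Ifi35, at 14.1 CPM with the next at 12.3 CPM. In HFD/FGFR4 KD, library 4 was high for Trim30a, at 6.75 CPM with the next at 3.69 CPM, and library 3 was low for Irf9, at 20.3 CPM with the next at 25.5 CPM. In Chow/FGFR4 KD, library 1 was high for Ifi35, at 16.1 CPM with the next at 12.1 CPM, and library 4 was low for Ifit2, at 1.10 CPM with the next at 2.74 CPM. The same library was low in the mean log2 level of the type I genes, at 0.017 with the next at 0.13. The difference between the KD effects on HFD and on chow passed for 0 genes of the list in limma, edgeR and DESeq2, and 4 had an unadjusted p under 0.05 in each tool.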

How the results depend on the processing

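The 18 calls in HFD against Chow became 33 with library totals as the scaling, with a median log2 change of 0.75. That scaling moves the median of all genes to 0.29 and the share of higher calls among all genes from 51.2% to 92.1%. In HFD/FGFR4 KD against Chow/FGFR4 KD the 8 calls became 13 with library totals, where the higher share over all genes went from 50.1% to 82.8%, and 4 with no filter. At an adjusted p under 0.05 the calls were 7 and 2. Knockdown on HFD gave 2 calls with library quality weights, 2 with a fit on the groups compared alone, and 1 with edgeR, DESeq2 and the other settings. Usp18 was among them each time, joined by Oasl1 under the weights and by Mx2 in the smaller fit. On chow and for the difference between the KD effects no setting gave a call in the list.

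Leaving out 1 library gave 13 (without Chow library 2) to 20 calls in HFD against Chow, 1 to 2 (without HFD library 2, which added Oasl1) in the KD comparison on HFD, and 5 (without HFD/FGFR4 KD library 2) to 9 in HFD/FGFR4 KD against Chow/FGFR4 KD.

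Some small changes of indicator genes turned in sign. With library quality weights, Stat2 was at -0.0085 in HFD against Chow and at -0.0014 for KD on chow, Isg15 at -0.037 for KD on chow, and the difference between the KD effects was 0.11 for Irf1 and 0.0076 for Psmb8. With library totals Psmb8 was at -0.038 for KD on HFD. Over the fits without 1 library, Stat2 in HFD against Chow ran from -0.031 to 0.094. For KD on HFD, Igtp ran from -0.12 to 0.44 and Psmb8 from -0.054 to 0.15. For KD on chow, Isg15 ran from -0.071 to 0.30, Ifit1 from -0.33 to 0.27, Igtp from -0.26 to 0.021, Gbp2 from -0.66 to 0.066 and Stat2 from -0.068 to 0.26. In HFD/FGFR4 KD against Chow/FGFR4 KD, Stat2 ran from -0.0079 to 0.33, Isg15 from -0.12 to 0.27, Psmb8 from -0.025 to 0.18 and Irf7 from -0.047 to 0.20. For the difference between the KD effects, Irf1 ran from -0.33 to 0.23, Psmb8 from -0.15 to 0.051, Stat2 from -0.037 to 0.29, Gbp2 from -0.69 to 0.035 and Igtp from -0.021 to 0.54. Stat2 was called in HFD/FGFR4 KD against Chow/FGFR4 KD without Chow/FGFR4 KD library 4, at 0.33. The other changes of this paragraph were not called in these fits, and the cause was not tested.

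Libraries of the same number in different groups did not deviate together in every pair, and the numbers were not taken as pairs in the main fit. With 4 libraries in each group, this check cannot exclude that libraries of the same number share a batch. With the replicate block the calls were 22 in HFD against Chow, 1 under KD on HFD, 0 under KD on chow, 12 in HFD/FGFR4 KD against Chow/FGFR4 KD and 0 for the difference, and Isg15 turned to -0.0085 for KD on chow.

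Most type I genes were read from under 70 counts in a library, which limits what could be detected. The number of genes called over the whole table also moved: in HFD against Chow from 2939 to 4306 with library totals and 5185 with no filter, for KD on HFD from 356 to 230 with edgeR, 114 with library totals and 776 with quality weights, and for the difference from 4 to 54 with DESeq2.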
